A study of Mus musculus with 10 samples.

Results

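The 8 subunits of the CCT chaperonin, encoded by Tcp1, Cct2, Cct3, Cct4, Cct5, Cct6a, Cct7 and Cct8, were followed through ribosome profiling of mouse embryonic stem cells before and after short treatment with 3 translation inhibitors. They were found by gene symbol among the 14534 transcripts listed with 1 coding sequence (ORF) each, and all 8 were present with 1 transcript apiece. The cells were CGR8, a mouse embryonic stem cell line of strain 129 that grows without feeder cells on leukemia inhibitory factor. Ribosome footprints, the mRNA pieces that a ribosome shields from RNase, were sequenced from cells left untreated as control or exposed to DMDA-PatA at 1 µM for 10 min, to harringtonine at 2 µg/ml for 10 min, or to puromycin for 20 min at 0.2 mg/ml. Each of the 4 conditions had 2 libraries, and 2 whole transcriptome libraries came from untreated cells. All samples held the same amount of DMSO, and cycloheximide was added only to the chilled cells and extracts. The study's methods call the replicates biological, but neither they nor the labels say whether these were separate cultures, so p-values measure the spread between the libraries of a condition.

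CCT, also called TRiC, is a cytosolic chaperonin of 2 stacked rings. Each ring holds 1 copy of each of the 8 related subunits, so that the complex needs them in equal numbers. It folds actin, tubulin and a range of other proteins, many of them with WD40 repeats, in an ATP-driven cycle, and prefoldin hands it unfolded actin and tubulin. DMDA-PatA is a derivative of pateamine A, which acts on the RNA helicase eIF4A that loads ribosomes onto mRNA. Harringtonine stops newly initiated ribosomes while those already elongating run off, and puromycin enters the growing chain and releases it.

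The 12 bases before the start codon, the start codon in capitals and the 3 bases after it are shown because DMDA-PatA acts on the loading of ribosomes ahead of the start codon and harringtonine on ribosomes that have just begun there. They were read from GRCm38 at the start of the listed ORF, along the exons of the transcript in GENCODE M21. For Cct5 and Cct7 the listed start lay 43 and 9 nt further along the transcript than in GENCODE M21. For these genes the GENCODE M21 start was used. The listed transcript of Cct6a begins at its ATG, so its bases before the ATG follow Cct6a-202, another transcript of the gene that GENCODE M21 does not annotate as coding.
Tcp1: cgtttcctgaagATGgag
Cct2: tccgtcggaaccATGgct
Cct3: cgtcgtgccgccATGatg
Cct4: accaaggtcgccATGccg
Cct5: agttcgtccaccATGgcg
Cct6a: gctaggccagccATGgcg
Cct7: gccgcttccaagATGatg
Cct8: tgcggccgagccATGgcg
The third base before the ATG was a purine in 8 of 8 subunits, against 85.0% of 11157 listed ORFs with an ATG at the listed start. The base after the ATG was a G in 5 of 8, Tcp1, Cct2, Cct5, Cct6a and Cct8, against 52.2%. Both favourable bases stood together in those 5 of 8 subunits and in 44.5% of the listed ORFs. These start sites lie in exons at chr17:12916554-12916571 for Tcp1 (plus strand), chr3:88297224-88297241 for Cct3 (plus), chr11:22990742-22990759 for Cct4 (plus), chr15:31601700-31601717 for Cct5 (minus), chr5:129787427-129787444 for Cct6a (plus), chr6:85452110-85452127 for Cct7 (plus) and chr16:87495783-87495800 for Cct8 (minus). That of Cct2 is split by an intron and spans chr10:117063048-117063720 (minus).

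The listed ORFs were close to each other in length in 7 of the 8 subunits, from 1527 nt in Cct4 to 1644 nt in Cct8. The exception was Tcp1. Its listed transcript, Tcp1-207 at chr17:12916439-12918379, has an ORF of 309 nt that shares its start with the longest coding sequence of the gene, of 1668 nt, and holds 16.7% of it in frame. Values of Tcp1 therefore describe the first part of its coding sequence, and they are set apart below. The listed ORF was the whole longest coding sequence in Cct2, Cct5, Cct7 and Cct8, held 94.4% of it in Cct4 and 93.8% in Cct3, and has no coding transcript to compare with in GENCODE M21 for Cct6a. No 5' UTR was listed for Cct6a, so 5' UTR values exist for 7 subunits. The authors left out reads that matched the genome at several places. Of all 30-base stretches of the ORF, 17.3% had an exact match elsewhere in the genome in Cct3, 12.3% in Cct7, 6.14% in Cct4, 1.60% in Cct6a and 0.254% in Cct2, and none in Tcp1, Cct5 or Cct8.

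Values are given as normalized reads, that is, reads divided by a size factor that the authors set from spike-in RNA for footprints and between the 2 replicates for the transcriptome. Reads on all coding ORFs ranged from 618334 to 10614247 in the ribosome profiling libraries, lowest in DMDA-PatA and highest in the control, and were 16649611 and 38046741 in the transcriptome. The CCT ORFs held between 4157 and 111148 of them in a footprint library. In such bulk extracts, fewer cells and less RNA per cell cannot be told apart. All 10 embryonic stem cell markers were above 100 normalized transcriptome reads, with 9296 and 7696 for Pou5f1. Of the 3 fibroblast markers, Col1a1 stood at 132308 and 136627 and Col1a2 at 28772 and 27783, but Thy1 at 119 and 125, whereas the 4 primitive endoderm markers summed to 410 and 407 reads, the 3 mesoderm markers to 3222 and 3499 and the 3 neural markers, mostly Nes, to 11343 and 9727. No marker was at 0, and the part of other cells in the CCT values was not tested.

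How evenly the subunits were translated was first asked in untreated cells. Per kb of listed ORF, footprints were densest on Cct4, the delta subunit, with 14745 and 12148 normalized reads per kb in the 2 control libraries. Cct5, the epsilon subunit, followed with 12658 and 11244. Cct3, the gamma subunit, had the lowest mean with 8339 and 6381, although Cct7, with 7868, was lowest in control replicate 1. Between them lay Cct2, Cct8 and Cct6a, with means of 9007, 9005 and 8799 per kb, and then Cct7 and Tcp1, with 7767 and 7568 per kb. Of the 7 pairs of neighbours in this order, 5 overlapped between their libraries, and only Cct5 against Cct2 and Cct6a against Cct7 did not. Control replicate 1 was above replicate 2 in every subunit, so this overlap also holds the scale of each library. Within each library Cct4 stood above Cct5, Cct8 above Cct6a and Tcp1 above Cct3. Cct2 with Cct8 and Cct7 with Tcp1 changed order between the libraries. The highest mean density was 1.83 fold the lowest.

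Transcriptome density per kb differed more between subunits than footprint density. It was highest for Cct5 with 15140 and 14897 normalized reads per kb and lowest for Cct3 with 5261 and 5265, a ratio of 2.85 for the means, and the coefficient of variation over the 8 subunits was 31.3% for the transcriptome and 23.4% for footprints. Both ratios were stable between replicates, at 1.87 and 1.90 for footprints and at 2.88 and 2.83 for the transcriptome. Counting only the 30-base stretches with no match elsewhere, the ratios were 1.89 and 2.36 and the coefficients of variation 22.4% and 27.8%, and the lowest footprint density was that of Tcp1, with 7568 per kb, and no longer that of Cct3, with 8897. The difference between the spreads was not tested.

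Translation efficiency, the share of a gene in the footprints on coding ORFs divided by its share in the transcriptome, was above 1 in all 8 subunits. It was 3.79 and 3.11 for Cct3 in replicates 1 and 2, 2.71 and 2.44 for Cct4, and 1.73 and 1.51 for Cct6a, the zeta subunit. Cct3 was highest and Cct6a lowest in both replicates, and the remaining means lay between 1.80 and 2.41. The edgeR quasi-likelihood test with Benjamini-Hochberg adjustment, run over 13717 ORFs with the coding total as library size, called all 8 higher than the coding total, a call made for 29.9% of the ORFs. Log2 differences ranged from 0.69 ± 0.09 (SE) for Cct6a with an adjusted p of 1.05e-05 to 1.78 ± 0.10 for Cct3 with an adjusted p of 1.64e-09, and their median of 1.12 compares with -0.19 over all ORFs tested. With the CCT sum as library size in place of the coding total, 4 of 8 subunits differed from the complex as a whole in edgeR, against 84.3% of all ORFs called on this scale. That percentage also counts the distance of CCT from other ORFs, and is no baseline for differences within the complex. Cct3 was higher by 0.71 ± 0.10 (adjusted p = 1.22e-05) and Cct4 by 0.29 ± 0.09 (adjusted p = 0.0101), Cct6a was lower with -0.38 ± 0.10 (adjusted p = 0.00247), and Cct2, the beta subunit, was lower with -0.23 ± 0.10 (adjusted p = 0.0477), a call that was lost when Tcp1 was left out of the sum (adjusted p = 0.0521).

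**Figure D1:**
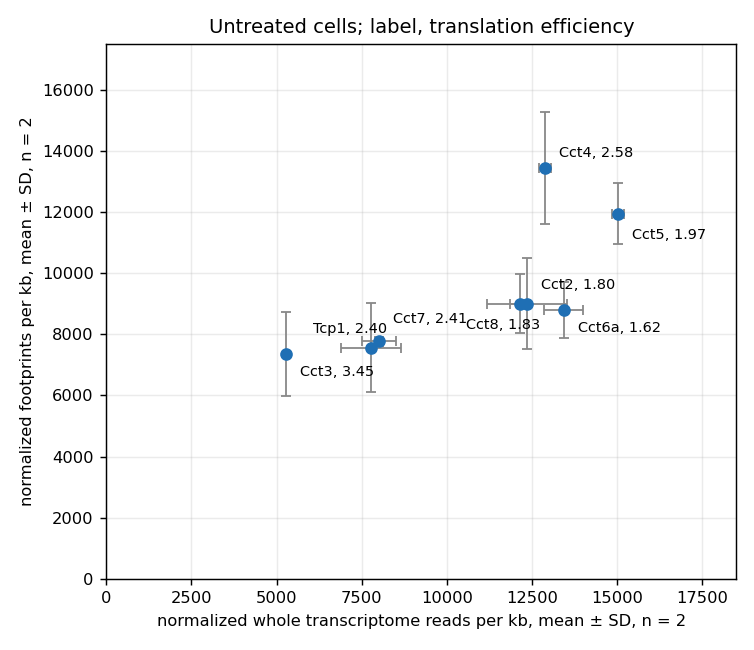
Normalized whole transcriptome reads per kb of listed ORF (x axis) against normalized control footprints per kb (y axis) for the 8 CCT subunits in untreated cells. Points are means and bars SDs of 2 libraries, and each label gives the mean translation efficiency, from 1.62 for Cct6a to 3.45 for Cct3.

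The plot of footprint density against transcriptome density shows that subunits differed more along the transcriptome axis than along the footprint axis. Cct3 lay at the left with the least transcriptome signal and a footprint density close to those of Cct7 and Tcp1. The footprint density of Cct4 stood above that of Cct2, Cct6a and Cct8, whose mean transcriptome densities of 12350, 13429 and 12142 per kb lay on both sides of its 12876.

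DMDA-PatA lowered the ORF footprints of all 8 subunits. The summed CCT value fell from 118746 and 100754 normalized reads in the control to 2624 and 4008, a 33.1 fold decrease of the mean. The largest decreases were those of Cct8, the theta subunit, and of Cct4. Cct8 went from 15936 and 13671 normalized ORF footprints to 232 and 312, and Cct4 from 22516 and 18549 to 314 and 460. Tcp1 had the smallest decrease, from 2657 and 2020 to 85.9 and 149. In every subunit both treated libraries lay far below both controls, and DMDA-PatA replicate 2 was above replicate 1 in each of them.

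On the log2 scale the changes with DMDA-PatA were -5.76 ± 0.56 (SE) for Cct8 (edgeR adjusted p = 5.44e-24), -5.73 ± 0.56 for Cct4 (edgeR adjusted p = 2.42e-23) and -4.32 ± 0.51 for Tcp1 (edgeR adjusted p = 5.01e-17). The other 5 lay between -4.99 and -4.54. A shift in scale common to all ORFs of a library is replicated by 2 libraries a condition only, however many ORFs are fitted. With the spike-in size factors, very small p-values and the intervals therefore overstate the certainty about the size of a change. All 8 of 8 were called lower in this fit of the 8 ribosome profiling libraries, and so were 99.8% of the 12298 ORFs tested, so that the count does not set CCT apart. With TMM scaling 6 of 8 were called lower, against 26.7% of all ORFs, and Tcp1 with -0.20 (edgeR adjusted p = 0.520) and Cct3 with -0.40 (edgeR adjusted p = 0.115) were not. The median over the subunits was -4.88, and over all ORFs tested -4.33. The changes spanned a 2.72 fold range, or 2.34 fold over the 7 subunits without Tcp1.

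**Figure D2:**
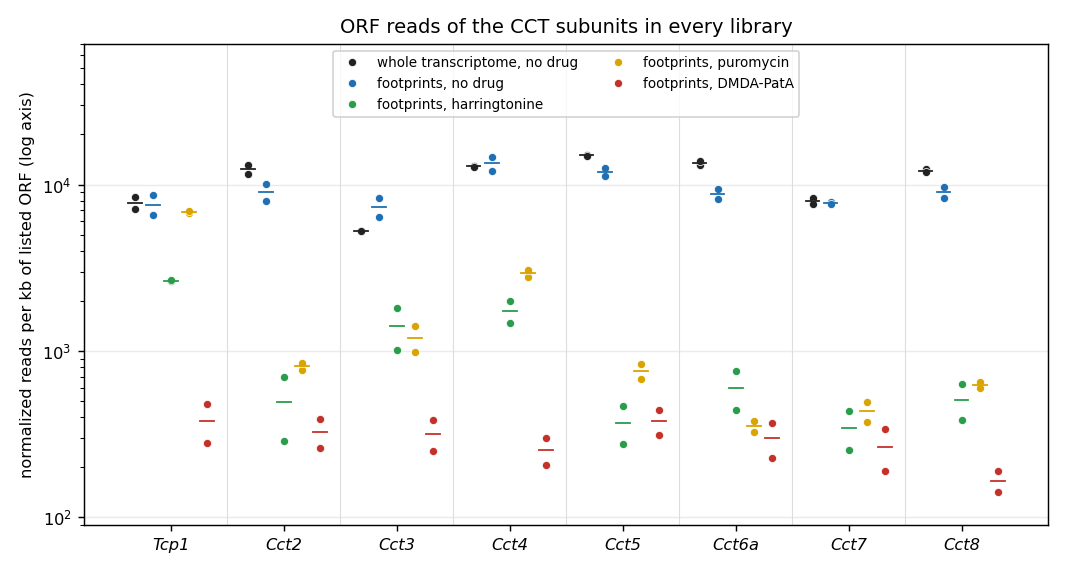
Normalized reads per kb of listed ORF on a log axis for each CCT subunit, with 1 point per library and a bar at the mean of the 2 libraries. With DMDA-PatA (red) all subunits lay between 141 and 481 per kb, whereas with puromycin (yellow) they spread from 324 to 6974 per kb.

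Harringtonine also lowered all 8 subunits on the spike-in scale, but much less evenly. Cct5 fell most, from 20545 and 18249 normalized footprints to 760 and 445. Cct7, the eta subunit, fell from 12841 and 12510 to 708 and 416. Cct3 fell from 13034 and 9974 to 2841 and 1588, and Tcp1 from 2657 and 2020 to 818 and 820. Again no treated library reached a control, and harringtonine replicate 1 was above replicate 2 in all subunits but Tcp1.

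The log2 changes with harringtonine ran from -5.01 ± 0.54 for Cct5 (edgeR adjusted p = 5.31e-19) to -1.51 ± 0.45 for Tcp1 (edgeR adjusted p = 0.000921), an 11.3 fold range, or 6.20 fold without Tcp1. All 8 of 8 were called lower, against 93.9% of all ORFs tested. Their median was -4.01, below the median of -2.99 over all ORFs. Scaling with TMM in edgeR, which removes most of the general decrease and moves the median of all ORFs to -0.19, left 5 of 8 called lower with harringtonine, Cct2, Cct5, Cct6a, Cct7 and Cct8, against 32.3% of all ORFs. It turned the change of Tcp1 to 1.379, the 1 higher call against 24.8% (edgeR adjusted p = 1.73e-05), and that of Cct3 to 0.40 (edgeR adjusted p = 0.0858).

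Puromycin lowered 7 of 8 subunits, against 91.1% of all ORFs tested. Cct6a fell most, from 15064 and 13023 normalized footprints to 517 and 609. Cct4 kept the most reads among the 7, with 4262 and 4662 against 22516 and 18549 in the control. Tcp1 stood at 2087 and 2155 against 2657 and 2020, and its puromycin libraries lay between those of the control. The log2 changes were -4.64 ± 0.53 for Cct6a (edgeR adjusted p = 7.75e-17), -2.20 ± 0.48 for Cct4 (edgeR adjusted p = 7.76e-06) and -0.14 ± 0.44 for Tcp1 (edgeR adjusted p = 0.756), where the 95% interval of the change reaches from -1.01 to 0.72. The median was -3.66 over the subunits and -2.50 over all ORFs. With TMM scaling, which moves the median of all ORFs to -0.12, 5 subunits were called lower against 27.4% of all ORFs, Cct4 stood at 0.18 (edgeR adjusted p = 0.452) and Tcp1 was higher by 2.25, against 21.9% of ORFs called higher (edgeR adjusted p = 8.27e-08).

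The listed Tcp1 ORF is also the only short one. Among 409 tested ORFs of 250 to 370 nt, the median log2 change was -0.996 with puromycin, -1.39 with harringtonine and -3.59 with DMDA-PatA, beside -0.14, -1.51 and -4.32 for Tcp1. Among 874 tested ORFs of 1500 to 1700 nt, the range that holds the other 7 subunits, the medians were -2.73, -3.15 and -4.49. Against these, the medians of the 7 subunits were -3.84 with puromycin, -4.15 with harringtonine and -4.89 with DMDA-PatA. For Tcp1, the gene, the length of the listed ORF and its position at the start of a longer coding sequence cannot be told apart. The ORFs of 250 to 370 nt were taken by listed length alone, so they are not matched to Tcp1 in that position.

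**Figure D3:**
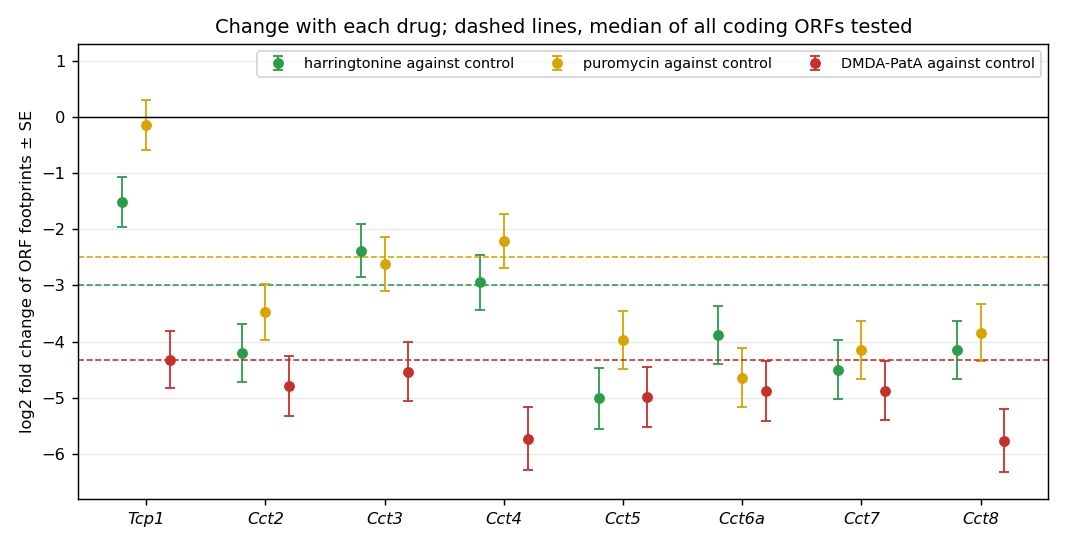
Log2 fold change of ORF footprints on the spike-in scale with each drug against control for the 8 CCT subunits, with bars for the SE and dashed lines at the median of the 12298 ORFs tested. With DMDA-PatA (red) all subunits lay between -5.76 and -4.32, while with puromycin (yellow) they reached from -4.64 to -0.14. Values under TMM scaling are not drawn, and there Tcp1 and Cct3 with harringtonine and Tcp1 and Cct4 with puromycin stood above 0.

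The drugs were then compared with each other for each subunit, in the same fit. Footprints were lower with DMDA-PatA than with harringtonine on 4 of 8 subunits, against 53.0% of all ORFs, and lower than with puromycin on 6 of 8, against 67.9%. Tcp1 and Cct4 stood out in both. Cct4 was 6.88 fold lower with DMDA-PatA than with harringtonine (edgeR adjusted p = 2.48e-07) and 11.5 fold lower than with puromycin (edgeR adjusted p = 8.85e-11), and Tcp1 was 7.00 fold (edgeR adjusted p = 8.10e-08) and 18.1 fold lower (edgeR adjusted p = 1.23e-14). Cct3 and Cct8 were lower than with either drug too, with log2 differences from -2.16 to -1.62, and Cct2 and Cct5 passed against puromycin alone, where the call of Cct5 (edgeR adjusted p = 0.0429) was lost in 5 of the 8 fits that left out 1 library and that of Cct2 (edgeR adjusted p = 0.00867) in 2 of them. With TMM scaling Tcp1 and Cct4 alone stayed lower than with puromycin, and Cct2 turned to 0.44 (edgeR adjusted p = 0.0861). DMDA-PatA was then higher than puromycin for Cct5 with 0.75 (edgeR adjusted p = 0.00342), Cct6a with 1.49 (edgeR adjusted p = 2.82e-06) and Cct7 with 1.01 (edgeR adjusted p = 0.000347). It was higher than harringtonine for Cct2 with 0.82 (edgeR adjusted p = 0.00275) and Cct7 with 0.95 (edgeR adjusted p = 0.000644), and Cct6a at 0.33 did not pass (edgeR adjusted p = 0.172).

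For Cct5, DMDA-PatA and harringtonine differed by 0.02 on the log2 scale with a 95% interval from -0.88 to 0.92, and Cct7 differed by -0.38 with an interval from -1.27 to 0.52. For Cct6a, DMDA-PatA and puromycin differed by -0.25 with an interval from -1.14 to 0.65. In these 3 cases the libraries of both drugs overlapped, and intervals of this width do not show that the drugs acted alike. Harringtonine was lower than puromycin for Tcp1 alone, with -1.37 ± 0.45 (edgeR adjusted p = 0.0270) and a call for 10.1% of all ORFs, and this call was lost in 4 of the 8 fits without 1 library.

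The standing of CCT against the rest of translation was measured with the coding total of each library as reference. CCT ORFs took 1.11% and 1.05% of the coding ORF reads in the control. DMDA-PatA left them 0.672% and 0.660%, harringtonine 0.586% and 0.626%, and puromycin 0.689% and 0.736%. Their transcriptome shares were 0.511% and 0.514%. Every treated library was thus below both controls and above both transcriptome libraries. On this scale 5 of 8 subunits were lower with DMDA-PatA in edgeR, against 20.0% of all ORFs. None was higher, against 21.2%, whether in edgeR, at an unadjusted p under 0.05 or in DESeq2. The largest changes were -1.39 ± 0.19 for Cct8 (edgeR adjusted p = 4.33e-06) and -1.37 ± 0.19 for Cct4 (edgeR adjusted p = 7.41e-06), and both passed in all 8 fits that left out 1 library. The other 3, Cct5, Cct6a and Cct7, lay between -0.62 and -0.54, and leaving out any 1 of the control or DMDA-PatA libraries brought the count of 5 down to 2 or 3.

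With harringtonine, 5 of 8 subunits were lower relative to the coding total and 1 was higher, against 34.7% and 22.7% of all ORFs. The lower ones were Cct5 with -2.32 ± 0.19 (edgeR adjusted p = 2.18e-09), Cct7, Cct2, Cct8 and Cct6a. Tcp1 was higher with 1.28 ± 0.21 (edgeR adjusted p = 2.42e-05), beside a median of 1.31 for ORFs of 250 to 370 nt. With puromycin the same 5 subunits were lower, led by Cct6a with -2.19 ± 0.18 (edgeR adjusted p = 7.88e-09), and Tcp1 was higher with 2.31 ± 0.22 (edgeR adjusted p = 3.58e-08), against 25.6% and 23.5% of all ORFs. ORFs of 250 to 370 nt had a median of 1.43 with puromycin, below Tcp1, and of 0.77 with DMDA-PatA, above the 0.02 of Tcp1. Cct3 and Cct4 passed in neither direction with either drug, with values from -0.21 to 0.31.

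Because the complex needs its subunits in equal numbers, their shares of the CCT reads were compared as well. Cct4 held 19.0% and 18.4% of the CCT ORF reads in the control, 34.3% and 32.9% with puromycin and 26.5% and 30.9% with harringtonine, but 11.96% and 11.5% with DMDA-PatA. Its share thus moved up with puromycin and harringtonine and down with DMDA-PatA, with no overlap between conditions and control. A share also moves when the other subunits change. Relative to the coding total, Cct4 passed with neither harringtonine (-0.21) nor puromycin (0.25). Cct5 held a control share of 17.3% and 18.1%, stood at 19.3% and 17.9% with DMDA-PatA and dropped to 6.58% and 6.08% with harringtonine and to 8.90% and 9.63% with puromycin. Cct3 rose from 11.0% and 9.90% in the control to 24.6% and 21.7% with harringtonine. The Tcp1 share, for its short ORF, rose from 2.24% and 2.00% to 16.8% and 15.2% with puromycin.

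With the CCT sum as library size, 4 of 8 subunits changed their share with DMDA-PatA, against 48.0% of all ORFs called on this scale, 7 of 8 with harringtonine, against 57.2%, and 6 of 8 with puromycin, against 52.4%. Here too the percentages also count the distance of CCT from other ORFs, and are no baseline for changes within the complex. Under DMDA-PatA, Cct8 was lower by -0.70 ± 0.20 on the log2 scale (edgeR adjusted p = 0.00507) and Cct4 by -0.67 ± 0.20 (edgeR adjusted p = 0.00642), while Tcp1 was higher by 0.72 ± 0.22 (edgeR adjusted p = 0.00948) and Cct3 by 0.52 ± 0.20 (edgeR adjusted p = 0.0346). None of these 4 calls was left without DMDA-PatA replicate 2, and 2 were left without control replicate 2. The changes in share spanned a 2.67 fold range with DMDA-PatA, 12.04 fold with harringtonine and 22.8 fold with puromycin, or 2.33, 6.20 and 5.44 fold without Tcp1. Opposite calls for the same subunit under different drugs were made for Cct4 alone, lower with DMDA-PatA and higher with harringtonine by 0.62 ± 0.20 (edgeR adjusted p = 0.00859, lost without either control library) and with puromycin by 0.85 ± 0.20 (edgeR adjusted p = 0.000715). The difference of Cct4 between the drugs, tested directly on this scale, was -1.29 ± 0.20 for DMDA-PatA against harringtonine (edgeR adjusted p = 1.43e-05) and -1.52 ± 0.20 against puromycin (edgeR adjusted p = 1.19e-06).

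**Figure D4:**
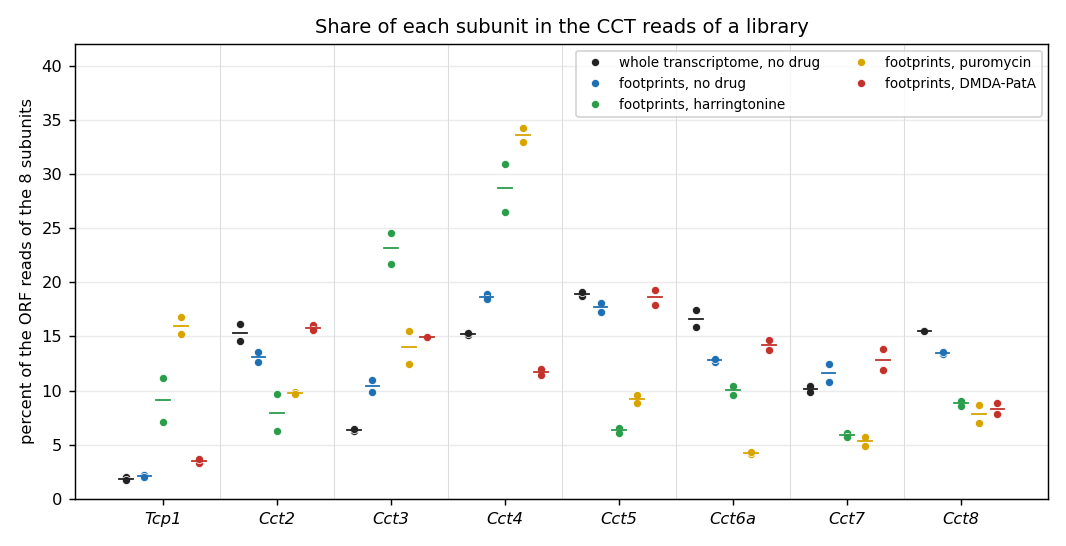
Percent of the ORF reads of the 8 CCT subunits that fell on each subunit, with 1 point per library and a bar at the mean of the 2 libraries. Cct4 rose to between 26.5% and 34.3% with harringtonine and puromycin and dropped to between 11.5% and 11.96% with DMDA-PatA, and Tcp1, whose listed ORF is short, reached 16.8% with puromycin.

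The plot of shares shows the DMDA-PatA libraries overlapping the control for Cct5 and Cct7, below it for Cct4 and Cct8 and above it for Tcp1, Cct2, Cct3 and Cct6a. Cct3 went from 11.0% and 9.90% to 14.96% and 14.97%. Cct2 went from 13.6% and 12.7% to 16.02% and 15.6%, and neither its change nor that of Cct6a passed. Harringtonine and puromycin both stood above the control for Tcp1, Cct3 and Cct4 and below it for Cct2, Cct5, Cct6a, Cct7 and Cct8. The changes of Cct2 and Cct3 with puromycin and of Cct6a with harringtonine did not pass. Cct6a was lower with puromycin than with harringtonine by a log2 difference of 1.24 ± 0.20 (edgeR adjusted p = 4.56e-05) and Cct3 by 0.72 ± 0.20 (edgeR adjusted p = 0.00876). The comparisons with control share the same 2 control libraries.

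Footprints counted on the 5' UTR, ahead of the coding sequence, moved differently from those on the ORF. For its own drug comparison the study trimmed the end of each 5' UTR, because footprints next to the start codon can carry over. The 5' UTR values here were used as deposited, so such footprints cannot be told apart from others on the 5' UTR. Harringtonine raised them in 5 of 7 subunits, against 35.1% of the 6647 5' UTRs tested. Cct2 had 160 and 150 normalized 5' UTR footprints in the control and 2295 and 2603 with harringtonine. Cct4 had 800 and 881 in the control and 4488 and 3037 with harringtonine. For both genes the treated libraries lay well above the controls. The log2 changes were 3.98 ± 0.49 for Cct2 (edgeR adjusted p = 1.52e-13), 2.16 ± 0.44 for Cct4 (edgeR adjusted p = 1.73e-05), 2.58 ± 0.71 for Cct8 (edgeR adjusted p = 0.00143), 1.79 ± 0.48 for Cct5 (edgeR adjusted p = 0.00112) and 1.72 ± 0.46 for Cct3 (edgeR adjusted p = 0.00112). DESeq2 called 3 of the 7 higher, against 29.1% of all 5' UTRs, and edgeR with TMM scaling 3, against 24.0%, and in both Cct3 and Cct8 were the ones lost. Without control replicate 2 the calls of Cct3 and Cct5 were lost, and without harringtonine replicate 2 those of Cct3 and Cct8. The Cct3 libraries overlapped, with 196 and 12.7 in the control against 141 and 536 with harringtonine, and its change moved between 0.46 and 4.73 when 1 library was left out.

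DMDA-PatA raised the 5' UTR footprints of 3 of 7 subunits, against 14.7% of all 5' UTRs. None was lowered, against 29.0%, whether in edgeR, at an unadjusted p under 0.05 or in DESeq2. Cct5 went from 48.3 and 37.2 normalized 5' UTR footprints in the control to 329 and 571, and Cct8 from 3.54 and 3.63 to 30.3 and 79.5. The Cct8 controls rest on 3 and 4 reads. For Cct3 the controls were 196 and 12.7 and the DMDA-PatA libraries 179 and 312, so that its conditions overlapped and the 2 controls differed more than the treated libraries did. The log2 changes were 3.40 ± 0.50 for Cct5 (edgeR adjusted p = 4.85e-10), 3.88 ± 0.68 for Cct8 (edgeR adjusted p = 2.62e-07) and 1.25 ± 0.46 for Cct3 (edgeR adjusted p = 0.0172). The call of Cct3 was lost in DESeq2, with TMM scaling, when DMDA-PatA and harringtonine swapped size factors, with the replicate block, and without control replicate 2 or DMDA-PatA replicate 2, where its change was 0.33 and 0.80. Without control replicate 1 it was 4.26. Tcp1, Cct2, Cct4 and Cct7 did not pass, with values from -0.74 to 0.12.

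DMDA-PatA and harringtonine were also compared with each other on the 5' UTRs, where DMDA-PatA was lower in 3 of 7 subunits, against 53.2% of all 5' UTRs, and higher in 2 of 7, against 4.11%. Cct2 5' UTR footprints were 26.4 fold lower with DMDA-PatA than with harringtonine (edgeR adjusted p = 2.85e-17) and those of Cct4 6.09 fold lower (edgeR adjusted p = 1.93e-07), whereas those of Cct5 were 3.05 fold higher (edgeR adjusted p = 0.00142) and those of Cct8 2.47 fold higher (edgeR adjusted p = 0.0277). The Cct2 difference lay among the lowest 0.782% of the 5' UTRs tested and the Cct5 difference above 96.8% of them. With puromycin 0 of 7 subunits passed in edgeR and 0 in DESeq2, against 0.963% of all 5' UTRs called in either direction by edgeR, and 1 of 7 had an unadjusted p under 0.05.

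**Figure D5:**
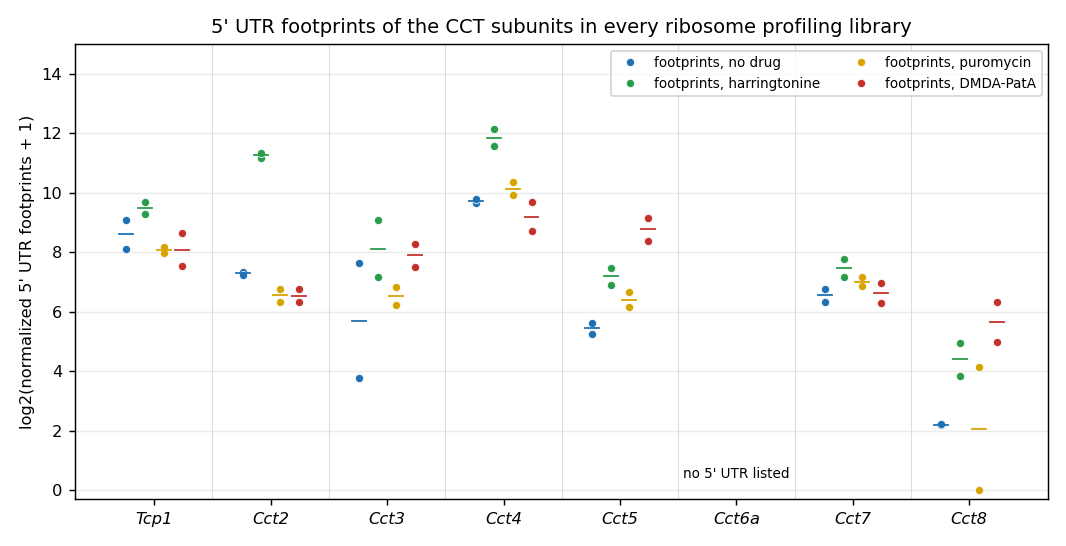
Normalized 5' UTR footprints, as log2(value + 1), of the 7 CCT subunits with a listed 5' UTR in the 8 ribosome profiling libraries, with a bar at the mean of the 2 points of a condition. Both harringtonine points (green) of Cct2 lie far above its control points of 160 and 150 normalized footprints, and for Cct5 the DMDA-PatA points are the highest.

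As a share of the 5' UTR and ORF footprints of a gene, 5' UTR footprints of Cct2 made up 0.983% and 1.17% in the control and rose to 67.3% and 84.9% with harringtonine. They were 15.9% and 14.5% after DMDA-PatA and 6.02% and 7.34% after puromycin. For Cct4 the control shares were 3.43% and 4.53%, which DMDA-PatA brought to 57.3% and 63.9%. Harringtonine brought them to 59.4% and 57.3%, so that with either drug most of the reads lay on the 5' UTR. Tcp1, with its short ORF, had the largest control shares, 17.0% and 12.04%, which overlapped with the 12.2% and 10.3% seen with puromycin.

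The ratio of 5' UTR to ORF reads, tested as an interaction within each library, was raised in 7 of 7 subunits by DMDA-PatA, against 93.6% of 6497 transcripts, in 7 of 7 by harringtonine, against 95.4%, and in 6 of 7 by puromycin, against 78.3%. The puromycin call of Cct8, 4.64 on the log2 scale, rests on 8 and 0 reads on its 5' UTR in the 2 libraries and turned to -1.19 without puromycin replicate 1. Log2 changes of the ratio ranged from 3.84 ± 0.32 for Tcp1 to 9.54 ± 0.72 for Cct8 with DMDA-PatA, from 2.38 ± 0.30 for Tcp1 to 8.29 ± 0.45 for Cct2 with harringtonine, and from -0.42 ± 0.31 for Tcp1 (edgeR adjusted p = 0.214) to 4.93 ± 0.50 for Cct5 with puromycin. Over the 7 subunits, 5' UTR reads were 1.76% and 1.62% of their 5' UTR and ORF reads in the control and 43.9% and 51.9% with harringtonine. Over all coding transcripts these shares were 4.01% and 4.27% in the control, and harringtonine raised them to 29.1% and 32.8%. With puromycin the CCT shares were 12.2% and 12.6%, below the 20.4% and 17.7% over all coding transcripts. With DMDA-PatA they were 36.5% and 41.3%, on both sides of the 38.2% and 38.6% over all coding transcripts. The 5' UTR of Cct7 overlaps the gene Pradc1 on the opposite strand over 214 nt. The libraries are stranded per the labels, and whether the counting used strand is not given in the sources used here.

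The partners of the complex were followed in lists of 52 genes, of which 49 could be tested. DMDA-PatA lowered all 49, against 99.8% of all ORFs, with a median log2 change of -4.42. Harringtonine lowered 46, against 93.9%, with a median of -3.30, and puromycin lowered 49, against 91.1%, with a median of -2.45. These counts were close to those over all ORFs, and so the counts in single lists below say little. Relative to the coding total, 17 of the 49 partners were lower and 9 higher with DMDA-PatA, against 20.0% and 21.2% of all ORFs. With harringtonine 24 were lower and 9 higher, against 34.7% and 22.7%, and with puromycin 17 and 15, against 25.6% and 23.5%. Of 50 partners tested for translation efficiency, 40 were higher than the coding total, against 29.9% of all ORFs, and 3 lower, against 41.2%. Their median was 0.93, beside -0.19 over all ORFs.

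Prefoldin, which delivers actin and tubulin chains to CCT, was lowered by DMDA-PatA in 6 of 6 subunits, against 99.8% of all ORFs, from -2.999 ± 0.45 for Pfdn5 to -6.49 ± 0.57 for Pfdn6. With respect to the coding total, 4 of its 6 subunits were higher and 1 lower with DMDA-PatA, against 21.2% and 20.0% of all ORFs. The list of CCT cofactors held the phosducin-like proteins Pdcl, Pdcl3 and Txndc9, and Tcp11l1, whose link to CCT was not checked. In this list 4 of 4 were lowered, from -4.63 ± 0.51 for Pdcl to -4.20 ± 0.49 for Pdcl3. The 5 tubulin cofactors, which assemble the folded tubulin dimer, were all lowered by DMDA-PatA, from -4.88 ± 0.51 for Tbcb to -2.64 ± 0.45 for Tbcc. R2TP and prefoldin-like genes were lowered in 5 of 5, from -5.56 ± 0.54 for Ruvbl1, a DNA helicase of that complex, to -3.21 ± 0.50 for Pdrg1.

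The substrates of CCT came next. Of 15 actin and tubulin genes 14 could be tested, and 14 were lowered by DMDA-PatA, again against 99.8% of all ORFs, from -6.41 ± 0.56 for Actr3, an actin-related protein of the Arp2/3 complex, to -2.81 ± 0.46 for Tubb2a, a beta tubulin, whose near-identical relatives make its counts uncertain where reads with several matches were left out. With harringtonine 13 of the 14 were lowered, and Tubb2a stood at -0.68 ± 0.42 (edgeR adjusted p = 0.112). The WD40 and other clients were lowered in 10 of 10 by DMDA-PatA, from -6.25 ± 0.56 for Cdc20, an activator of the anaphase-promoting complex, to -4.01 ± 0.52 for Vhl, and 6 of 10 were lower relative to the coding total, against 99.8% and 20.0% of all ORFs. The cytosolic Hsp70 and Hsp90 genes and the mitochondrial chaperonin were lowered in 5 of 5, from -5.60 ± 0.57 for Hsp90ab1 to -3.37 ± 0.47 for Hspd1, the mitochondrial relative of CCT. Cct6b, the testis paralog of Cct6a, was close to the floor with 9.43 and 12.7 normalized ORF footprints in the control and could not be tested between drugs.

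The 3 other coding transcripts with the level profile most like the mean of the CCT subunits were Slc25a3, a mitochondrial phosphate carrier, Skp1a, a ubiquitin ligase subunit, and Ddb1, a subunit of another ubiquitin ligase. Likeness was the root mean square difference of log2(mean normalized ORF value per kb + 1) over the 5 conditions, and it was 0.25, 0.25 and 0.26. The subunits themselves lay between 0.36 for Cct2 and 1.48 for Tcp1 from their own mean, which includes Tcp1 with its short ORF. These 3 genes were picked as the nearest of all listed coding transcripts. That they lay nearer to the mean than any subunit is therefore no result about the complex. Ddb1 had 7342 normalized footprints per kb in control cells, 242 after DMDA-PatA, 904 after harringtonine and 877 after puromycin.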

How the data were processed

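The deposited files gave, for 10 libraries, a signal for each ORF, 5' UTR and 3' UTR. The authors aligned SOLiD reads with LifeScope to the mouse genome build mm10, which is GRCm38, discarded those with multiple matches, leading mismatches or a match quality under 10, kept match lengths of 26 to 36 nt, counted reads per region of 1 transcript per gene (Ensembl 76 and other sources) and divided the counts by DESeq2 size factors, taken from spike-in RNA for footprints. Picard 1.38 stands in the submitters' processing notes. Every deposited value (100%) was a whole number of reads once divided by what 1 read was worth, within 0.001 of a read, so reads were recovered and tested as counts.

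Symbols came from GENCODE M21 for 14403 of 14534 coding transcripts. The main test was the quasi-likelihood test of edgeR 4.0.16 (limma 3.58.1, R 4.3.3) with Benjamini-Hochberg adjustment and a threshold of 0.05, for regions that reached 10 reads in 2 or more libraries. It took the authors' size factors, the coding total or the CCT sum as library size, and fitted all 4 conditions together with no covariate. The ratio of 5' UTR to ORF reads had a term for each library, and translation efficiency was fitted on the 2 control and 2 transcriptome libraries. DESeq2 1.42.0 was an alternative. The SE is the size of the log2 change divided by the square root of F, and intervals are 95% normal intervals from it. Python 3.11.15, numpy 2.4.6, pandas 2.3.3 and matplotlib 3.10.9 did the rest. The fits were tested on simulated counts. Depth was 618334 to 10614247 coding ORF reads per footprint library. Replicate numbers came from the labels, which do not say that a number marks a shared batch, so there was no block.

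The 8 members and all gene lists were chosen with earlier results of these data known. Genes named were the members, the list genes with the largest and smallest decrease with DMDA-PatA, all genes listed as CCT cofactors, the marker genes, and the 3 most alike profiles. The ORF length ranges and the count over unique 30-base stretches were chosen after seeing the data.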

Additional observations from a re-analysis of the deposited data

Results flagged for a closer look

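Footprints on the 3' UTR were used in no comparison. In untreated cells 4 subunits had more than 3 reads there in both control libraries. The mean normalized 3' UTR value was 204 for Cct3, with 230 and 178 in the 2 libraries. It was 16 for Cct8, 7.89 for Cct2 and 7.62 for Cct5. For Cct3, 64 nt of the listed 3' UTR lie within the longest coding sequence of the gene, and with each drug its 3' UTR value was at most 8.12. In the transcriptome the 3' UTR value of Cct3 was 107 and 260, whereas Cct2 had 2812 and 3012.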

How the results depend on the processing

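Of 1784 alternative values for 146 results on single subunits, 1649 kept their direction and their side of the threshold. TMM scaling set the median change of the 8 ORFs to -0.76 under DMDA-PatA, -1.23 under harringtonine and -1.28 under puromycin, and left 5 ORFs lower with harringtonine and 2 lower with DMDA-PatA than with puromycin. ORFs lower with harringtonine than with puromycin numbered 2 with TMM, 2 with DESeq2, 6 when DMDA-PatA and harringtonine swapped size factors and 0 with the replicate block. The 5' UTRs raised by harringtonine numbered 3 with DESeq2 and 3 with TMM. Translation efficiency set against the CCT sum differed in 4 subunits, and in 3 with Tcp1 left out of the sum, a setting added after seeing the data. The cause of these shifts was not tested.

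Under TMM the direction turned for Tcp1 (1.379) and Cct3 (0.40) with harringtonine, Tcp1 (2.25) and Cct4 (0.18) with puromycin, Cct2 (0.82), Cct6a (0.33) and Cct7 (0.95) for DMDA-PatA against harringtonine, Cct2 (0.44), Cct5 (0.75), Cct6a (1.49) and Cct7 (1.01) for DMDA-PatA against puromycin, Cct8 (0.11) and Cct7 (0.060) for harringtonine against puromycin, Tcp1 against the coding total with DMDA-PatA (-0.20) and the Cct4 5' UTR with DMDA-PatA (0.0068). With swapped size factors it turned for Cct7 between DMDA-PatA and harringtonine (0.085) and Cct3 between harringtonine and puromycin (-0.056). Translation efficiency against the CCT sum was -0.23 for Cct2, -0.095 for Cct5, -0.20 for Cct8 and -0.38 for Cct6a, and -0.22, -0.091, -0.19 and -0.37 without Tcp1.

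Leaving out 1 library at a time moved the median with harringtonine between -4.44 and -3.62, the count lower with harringtonine than with puromycin between 0 and 3, the count changed relative to the coding total with DMDA-PatA between 2 and 6, the count with a changed CCT share with DMDA-PatA between 0 and 4 and the 5' UTRs changed by harringtonine between 3 and 6. Ranges that crossed 0 were those of Tcp1 with puromycin (-0.33 to 0.071), of Cct2 (-1.09 to 0.18), Cct5 (-0.31 to 0.46) and Cct7 (-0.85 to 0.057) for DMDA-PatA against harringtonine, of Cct6a for DMDA-PatA against puromycin (-0.64 to 0.064), of Cct8 (-0.72 to 0.020) and Cct3 (-0.24 to 0.60) for harringtonine against puromycin, of Tcp1 with DMDA-PatA (-0.091 to 0.15) and Cct3 with puromycin (-0.39 to 0.022) against the coding total, of the 5' UTRs of Tcp1 (-1.16 to 0.075) and Cct7 (-0.26 to 0.42) with DMDA-PatA and of Cct8 (-5.08 to 2.17) and Cct3 (-1.05 to 2.89) with puromycin, and of the Cct8 ratio with puromycin (-1.19 to 5.94). Where an arm kept 1 library, that library was assumed to vary like the other groups.

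With the replicate block, 18 of 19 counts stayed within 1.5 times, among them ORFs lower with DMDA-PatA than with puromycin, which went from 6 to 5 as Cct5 was lost, and 5' UTRs changed by DMDA-PatA, which went from 3 to 2 as Cct3 was lost, and the ORF medians were -4.89 under DMDA-PatA, -4.02 under harringtonine and -3.65 under puromycin. The labels do not say that a replicate number marks a shared batch, so the numbers were not taken as a pairing. As a check, the log2 difference between replicates 1 and 2 of a condition was correlated over 6783 transcripts with that of another condition. These correlations of differences, not of the library values themselves, ran from -0.0225 to 0.159. Depth limits the 5' UTR of Cct8 most, which had 3 and 4 control reads. With 2 libraries a condition, calls near the threshold rest on single libraries. The general decrease with each drug rests on the spike-in size factors, while the ratio of 5' UTR to ORF reads and the shares of CCT reads do not use them.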
